A study of Mus musculus with 3 samples.

Results

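The DNA replication machinery was followed through 41 genes fixed by name, all of them measured, out of 18193 genes that the arrays report. A gene was included through every probe set that the platform annotation assigns to it alone, and 89 probe sets met that rule. The genes fall into 10 groups, namely the origin recognition complex, the licensing factors with geminin, the helicase Mcm2 to Mcm7, its activators Cdc45, GINS and Mcm10, the polymerases alpha with primase, delta and epsilon, the sliding clamp with its loader RFC, the single-strand binding protein RPA, and the enzymes that finish Okazaki fragments. RNA came from NIH3T3, an immortalized line of NIH/Swiss mouse embryo fibroblasts, in 3 conditions with 1 array each. The control cells are labelled as untransduced, the YAP cells overexpressed wild-type mouse YAP, and the mtYAP cells overexpressed YAP in which the serine at position 112 is replaced by alanine, so that the kinases of the Hippo pathway cannot phosphorylate that position. All were grown in 10% calf serum. The overexpressing lines had been infected with retrovirus carrying the tagged coding sequence and selected with puromycin. The study's methods also list virus from empty vector and do not say whether the array control received it. If the label holds, infection and selection cannot be told apart from YAP itself. The study set up the arrays to ask about growth that continues at confluence. Its array methods state no density for the cultures that gave the RNA. Levels are log2 values, so a difference of 1 is a 2-fold difference, and the level of a gene is the mean over its probe sets. With 1 array per condition no value has an error and nothing was tested. Each difference compares single arrays, and the differences of mtYAP and of YAP share the same control array.

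The median level of all probe sets lay between 4.56 and 4.60 on the 3 arrays, and the median gene differed from control by 0.02 in mtYAP and by −0.0033 in YAP. All 11 measured markers of fibroblasts stood at 6 or more on every array, and all 24 measured markers of epithelial, endothelial, leukocyte and embryonic stem cells stayed under 6, with 5.34 for Csf1r in mtYAP as the highest level among them. The median of the fibroblast markers was 10.71 in control, 10.39 in YAP and 10.02 in mtYAP. Of the 11, 4 lay below control by more than 1 in mtYAP and 1 in YAP, where 4.06% and 1.26% of all genes did. The part of these markers in the results was not tested. Yap1 read 8.57 in control, 8.06 in YAP and 7.89 in mtYAP, which checks neither label, because only coding sequence was introduced and the stretch of the transcript that its probe sets read was not stated. A free-text label of the control array mentions embryonic stem cells, whereas Nanog, Sox2 and Zfp42, which mark such cells, read 2.25, 1.75 and 1.95 there.

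Chromosomal DNA is copied once in each cell cycle. The origin recognition complex, with Cdc6 and Cdt1, loads the ring of Mcm2 to Mcm7 onto DNA before S phase, and geminin holds Cdt1 in check so that no origin is loaded again. In S phase Cdc45 and the GINS complex turn the loaded ring into the active helicase, primase and polymerase alpha start each strand, polymerases epsilon and delta extend them, and PCNA, loaded by RFC, holds the polymerases on DNA. Many of these genes are activated at entry into S phase by E2F transcription factors, and cells that have stopped dividing lose much of the loading machinery. In RNA from whole cultures, more cells in S phase and more RNA per cell cannot be told apart.

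In cells overexpressing mtYAP, all 41 replication genes stood above control, by 0.04 (Orc3) to 2.46 (Mcm2) on the log2 scale, with a median difference of 0.97. Among all genes 51.8% stood above control. Of the 41 genes, 19 lay above a difference of 1, where 3.77% of all genes did, and none lay below −1, where 4.06% did. Above 0.5 lay 34 of them, against 11.6% of all genes. In cells overexpressing wild-type YAP the same genes stood between −0.25 (Fen1) and 1.04 (Rfc4), and their median was 0.33. There 39 of 41 lay above control, against 48% of all genes. Only Rfc4 passed 1, where 1.36% of all genes did, none lay below −1, where 1.26% did, and 14 passed 0.5, where 6.38% did. As means over probe sets, the helicase Mcm2 to Mcm7 had the largest median in mtYAP, 1.51, and the activators Cdc45, GINS and Mcm10 the smallest, 0.515. With the brightest probe set of each gene the licensing factors with geminin came first, at 1.85 against 1.76 for the helicase, and the enzymes of Okazaki fragments last, at 0.515 against 0.845 for the activators. The order at both ends thus depends on how probe sets are joined. The list was chosen with earlier results of these arrays known, so these counts describe the genes and support no statement about chance.

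**Figure D1:**
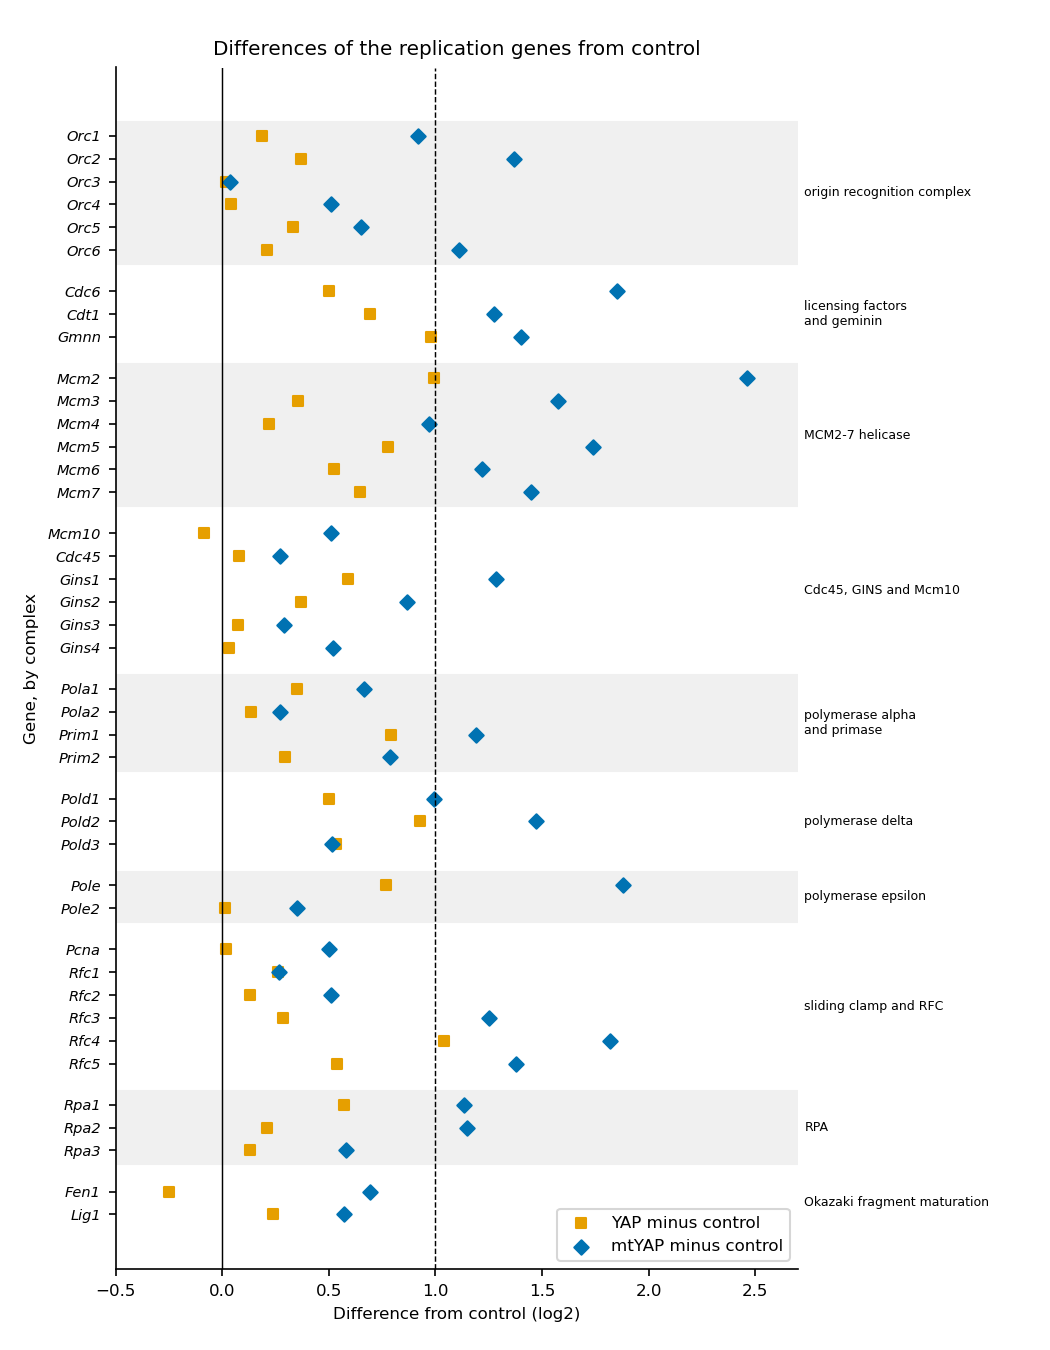
The 41 replication genes (vertical axis, grouped by complex) with their log2 difference from control (horizontal axis) in mtYAP (blue diamonds) and YAP (orange squares), each from single arrays. The solid line marks control and the dashed line a 2-fold difference, which 19 genes pass in mtYAP and Rfc4 alone in YAP.

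Of the 6 helicase subunits, 5 lay above 1 in mtYAP, and Mcm2 had the largest difference of the 41 genes. Mcm2 read 7.195 in control, 8.19 in YAP and 9.655 in mtYAP, which is 1.99-fold in YAP and 5.50-fold in mtYAP over control. Its 2 probe sets gave 2.43 and 2.49 in mtYAP and 0.98 and 1.01 in YAP, so the difference was read alike by both. Mcm7 read 7.595, 8.24 and 9.04 in control, YAP and mtYAP, and its 4 probe sets lay within 1.36 and 1.58 in mtYAP and within 0.61 and 0.71 in YAP. Mcm2 and Mcm7 are thus the subunits with the closest agreement between probe sets. Mcm5 read 4.89, 5.66 and 6.62 as a mean that includes a probe set near the floor of the array. Its brightest probe set read 6.73 in control, 7.97 in YAP and 9.45 in mtYAP, a difference of 1.24 and 2.72, the largest of any probe set among the 41 genes in mtYAP. Mcm6 was similar, with a mean difference of 0.53 in YAP and 1.22 in mtYAP that includes a probe set at about 2, and with 0.77 and 1.57 in the brightest probe set, which went from 8.22 in control to 8.99 in YAP and 9.79 in mtYAP. Mcm3 read 6.13, 6.48 and 7.70 in control, YAP and mtYAP. Of its 5 probe sets, 4 gave 1.62 to 1.97 in mtYAP and the dimmest gave 0.37. Mcm4 was the subunit closest to control, at 8.51, 8.73 and 9.48, a difference of 0.22 in YAP and 0.97 in mtYAP. The 6 subunits form a ring with 1 copy of each, and their differences spread over 0.97 to 2.46 in mtYAP and 0.22 to 0.995 in YAP.

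RefSeq windows of 300 bases around the start, 250 before it and 50 after it, were at hand for 33 of the 41 genes. They are shown because the helicase genes stood above control together and because E2F factors are known to act on this class of promoter. The bases before the start are given for the 3 genes with the largest difference in mtYAP among those with a level of 6 or more, with Mcm5 as the next in order in place of Pole, which has no entry, in GRCm38.p6, 5′ to 3′ in the direction of the gene, with capitals for the E2F-type words TTTCCCGC, TTTGGCGC, TTTCGCGC and TTTGCCGC, the word CACGTG that MYC and MAX bind, the word GGAATG of TEAD factors and the CCAAT box, each searched on both strands and allowed to overlap.
Mcm2 (chr6:88898781-88899030, minus strand): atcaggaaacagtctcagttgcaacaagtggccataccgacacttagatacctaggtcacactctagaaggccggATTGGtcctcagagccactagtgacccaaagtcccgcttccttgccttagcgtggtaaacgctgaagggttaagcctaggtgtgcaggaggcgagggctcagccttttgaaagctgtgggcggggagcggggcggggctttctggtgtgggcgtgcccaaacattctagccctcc
Rfc4 (chr16:23127731-23127980, minus strand): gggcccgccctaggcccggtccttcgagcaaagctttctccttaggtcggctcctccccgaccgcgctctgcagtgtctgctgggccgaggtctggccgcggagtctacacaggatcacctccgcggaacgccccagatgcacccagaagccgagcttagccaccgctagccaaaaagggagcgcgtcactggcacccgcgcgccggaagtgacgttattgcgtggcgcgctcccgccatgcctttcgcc
Mcm5 (chr8:75109259-75109508, plus strand): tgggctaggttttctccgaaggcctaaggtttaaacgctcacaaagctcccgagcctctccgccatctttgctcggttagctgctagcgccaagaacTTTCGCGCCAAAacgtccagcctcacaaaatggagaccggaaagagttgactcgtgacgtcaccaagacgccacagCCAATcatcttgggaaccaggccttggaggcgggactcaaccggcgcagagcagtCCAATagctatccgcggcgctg
Mcm2 and Rfc4, at 2.46 and 1.82 in mtYAP, hold none of the E2F-type words in their windows. In Mcm2 the capitals mark 1 CCAAT box 175 bases upstream of the start, and in Rfc4 no word was found. In Mcm5 a pair of E2F-type words overlap at 153 and 149 bases upstream, and CCAAT boxes follow at 77 and 22. The level of 6 had to be met on at least 1 array. As a mean over probe sets, Mcm5 met it on the mtYAP array alone, at 6.62. Cdc6, with a difference of 1.85 in mtYAP, reached 5.98 and was left out.

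An E2F-type word was found in 15 of the 33 genes with a window (45.5%), against 2.60% of all 27025 genes in the table. It was in 3.29% of the protein-coding genes, 3.8% of the genes on the array and 4.96% of those that reached a level of 6. The 33 genes were not limited by level. The median base content of the windows was 61.3% G and C for the replication genes and 61.7% for the genes that reached 6. The 15 genes are Orc1, Orc3, Cdc6, Cdt1, Mcm3, Mcm5, Mcm6, Mcm7, Gins3, Pola1, Pold1, Pold3, Pole2, Rfc3 and Lig1. In 9 of them a word lies before the start, and these stretches, other than that of Mcm5, are shown with the words in capitals and up to 14 bases on either side.
Orc1 (chr4:108579413-108579448, plus strand): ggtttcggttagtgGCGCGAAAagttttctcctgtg
Orc3 (chr4:34614962-34614997, minus strand): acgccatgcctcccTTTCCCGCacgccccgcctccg
Cdc6 (chr11:98907999-98908034, plus strand): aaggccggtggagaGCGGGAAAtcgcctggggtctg
Mcm6 (chr1:128359790-128359829, minus strand): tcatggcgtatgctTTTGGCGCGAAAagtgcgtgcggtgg
Mcm6 (chr1:128359731-128359766, minus strand): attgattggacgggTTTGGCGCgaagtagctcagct
Mcm7 (chr5:138172027-138172062, minus strand): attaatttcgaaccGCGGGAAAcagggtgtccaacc
Gins3 (chr8:95633504-95633539, plus strand): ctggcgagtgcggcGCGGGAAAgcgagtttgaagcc
Pola1 (chrX:93632272-93632307, minus strand): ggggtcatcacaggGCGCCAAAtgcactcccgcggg
Rfc3 (chr5:151651209-151651232, minus strand): gtgacgtcgcacgcTTTCGCGCtc
The word in Orc1 lies 27 bases upstream of the start, that in Rfc3 10 bases and those in Orc3 and Gins3 41 bases. Mcm6 has overlapping words at 110 and 106 bases and another at 47 bases, while the words of Cdc6, Pola1 and Mcm7 lie further away, at 138, 138 and 165 bases. The 15 genes with a word had median differences of 0.995 in mtYAP and 0.36 in YAP, and the 18 without had 0.90 and 0.24. The ranges overlapped, at 0.04 to 1.85 and 0.27 to 2.46 in mtYAP. Orc3, with a word 41 bases upstream, was the gene closest to control in mtYAP. The CCAAT box was in 21 of the 33 genes (63.6%) against 43.3% of the genes that reached a level of 6. The word CACGTG was in 6 (18.2%) against 12.9%, and GGAATG in 3 (9.09%) against 13.7%. Among the genes on the array with no level limit, the shares were 42.0% for the CCAAT box, 10.3% for CACGTG and 15.3% for GGAATG. The words were chosen with these data known. A match is a run of letters and says nothing of binding, and a window without a match says nothing of the factor.

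The origin recognition complex, which marks the sites where helicases are loaded, held subunits far from control and close to it. Orc2 read 6.46 in control, 6.83 in YAP and 7.83 in mtYAP, and its 3 probe sets gave 1.27 to 1.43 in mtYAP and 0.35 to 0.40 in YAP. Orc6, the small subunit, read 7.11, 7.32 and 8.22. Orc1, a subunit with ATPase activity that comes and goes with the cell cycle in many mammalian cells, read 4.915, 5.10 and 5.835, below a level of 6 on all arrays. Orc5, another subunit, read 7.58, 7.91 and 8.23, a smaller difference in mtYAP than those of Orc2 and Orc6. Orc4 read 5.92, 5.965 and 6.43, and its 4 probe sets spread from 0.16 to 1.11 in mtYAP and from −0.54 to 0.68 in YAP. Its brightest probe set read 8.2 in control, 8.88 in YAP and 9.31 in mtYAP. Orc3 read 5.94, 5.95 and 5.97 as a mean over probe sets that went both ways, at 0.44, 0.13 and −0.46 in mtYAP, with 7.27, 7.76 and 7.71 in the brightest. As means over probe sets, the median of the complex was 0.785 in mtYAP and 0.20 in YAP, with none of its genes above 0.5 in YAP. With the brightest probe set the medians were 0.88 and 0.345, and Orc4 stood at 0.68 in YAP.

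The licensing factors with geminin had a larger median in mtYAP than the origin recognition complex, 1.4 against 0.785. Not every gene followed, since Cdt1 as a mean, at 1.27, lay below Orc2, at 1.37. Cdc6, the ATPase that joins the origin recognition complex before loading, read 4.13 in control, 4.63 in YAP and 5.98 in mtYAP, 3.61-fold over control in mtYAP, but it stayed under 6 on each array. Cdt1, which brings the helicase to the origin, read 8.72 in control, 9.78 in YAP and 10.60 in mtYAP in its brightest probe set, a difference of 1.06 and 1.88. A second probe set gave 1.07 and 1.94, and the dimmest stayed at 1.98 to 2.03 throughout, which pulls the mean of the gene down to 0.69 and 1.27. Geminin, encoded by Gmnn, the inhibitor of Cdt1, stood above control as well, with 5.63 in control, 6.61 in YAP and 7.03 in mtYAP. Its difference of 0.98 in YAP was close to that of Mcm2 and among the largest of the 41 genes there. Activator and inhibitor of loading were therefore higher together in both lines.

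**Figure D2:**
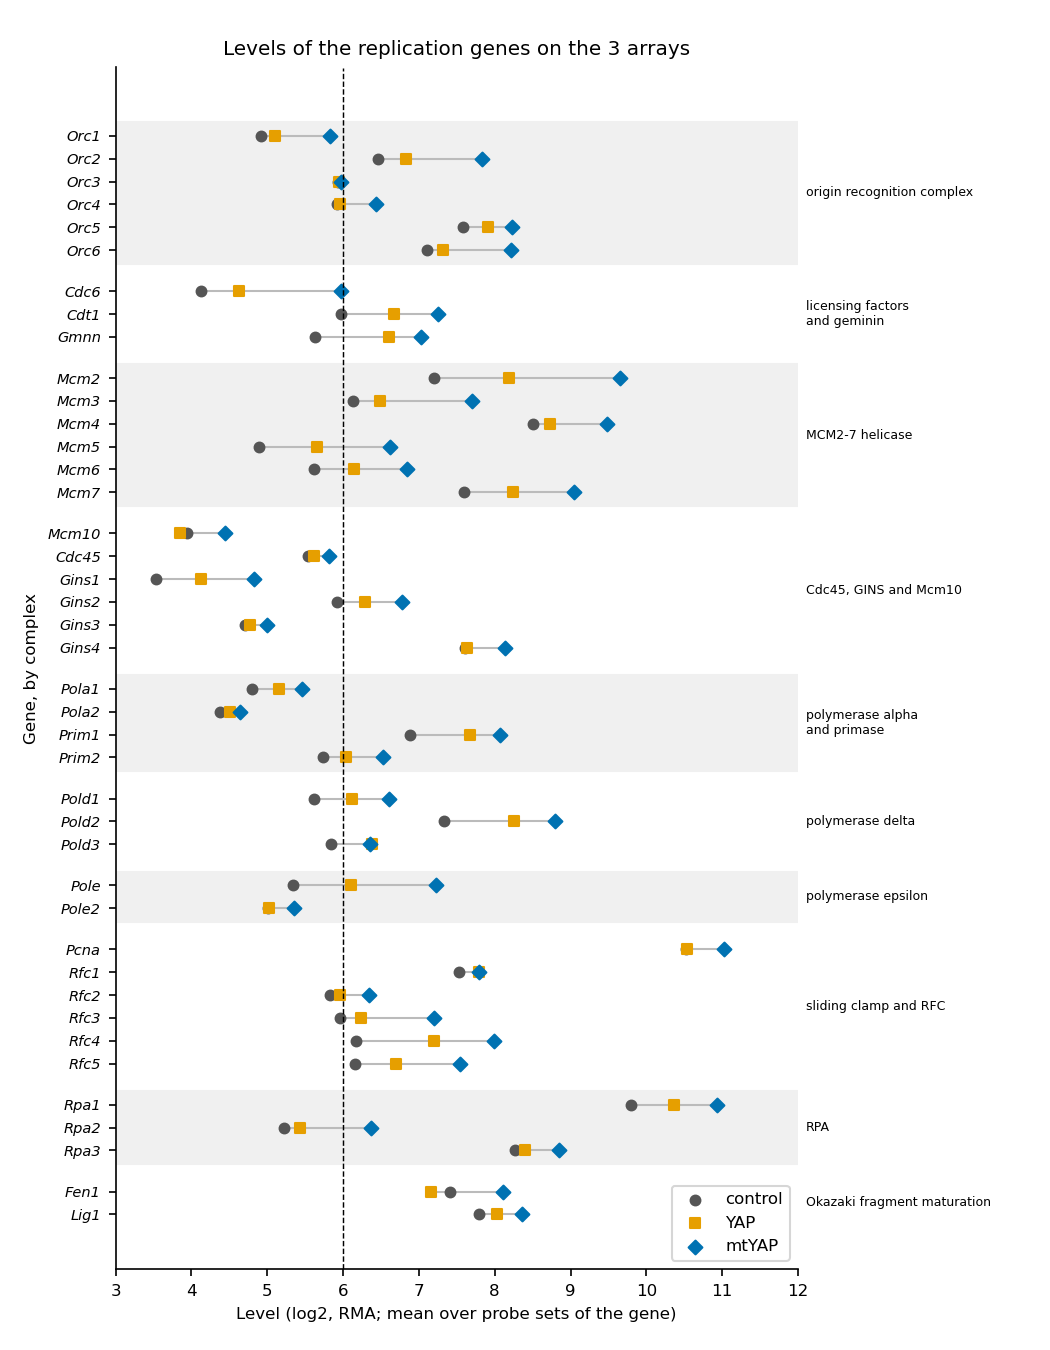
Level (log2, RMA, horizontal axis) of each of the 41 replication genes on the control (grey circles), YAP (orange squares) and mtYAP (blue diamonds) arrays, as the mean over the probe sets of the gene, with a grey line from the lowest to the highest array. The dashed line marks a level of 6, and Fen1 and Mcm10 are the genes whose YAP array lies below control.

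The factors that activate the loaded helicase had a smaller median in mtYAP than the helicase itself, 0.515 against 1.51. Gins1 as a mean, at 1.285, nevertheless lay above Mcm4, at 0.97, and Mcm6, at 1.22. The GINS complex holds Cdc45 on the ring, and its subunits differed from each other. Gins1 read 3.535, 4.125 and 4.82 in control, YAP and mtYAP, with 4.77, 5.67 and 6.67 in its brightest probe set, a difference of 0.90 and 1.90. Gins2 read 5.915, 6.285 and 6.78. Gins4, measured by 1 probe set, read 7.61 in control and 7.64 in YAP and reached 8.13 in mtYAP, and Gins3 read 4.705, 4.78 and 4.995. So 2 of the 4 subunits, Gins3 and Gins4, differed from control by less than 0.1 in YAP. Cdc45, the partner of GINS in the active helicase, read 5.54, 5.62 and 5.81, and its 2 probe sets disagreed in sign in mtYAP, at 0.73 and −0.19. Mcm10, which is needed to start unwinding and is no part of the ring despite its name, read 3.94, 3.86 and 4.45, with its brightest probe set at 5.06, 5.74 and 6.53 and another going from 4.14 to 3.44 and 3.88. As gene means, Cdc45, Gins1, Gins3 and Mcm10 lay under 6 on every array, while the brightest probe sets of Cdc45, Gins1 and Mcm10 reached 6.22, 6.67 and 6.53 in mtYAP.

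Among the polymerases, subunits of 1 enzyme differed as gene means, in part through probe sets near the floor of the array. Pole, the catalytic subunit of polymerase epsilon, which copies the leading strand, read 5.34 in control, 6.11 in YAP and 7.22 in mtYAP, 1.71-fold and 3.68-fold over control. Its partner Pole2 read 5.01, 5.025 and 5.36 as a mean of a bright probe set at 6.76, 7.19 and 7.76 and a dim one that went the other way. Pold2, the second subunit of polymerase delta, which copies the lagging strand, read 7.33, 8.26 and 8.80, and Pold1, the catalytic subunit, read 5.615, 6.115 and 6.61. Pold3, an accessory subunit, read 5.84 in control and was level in both lines, at 6.38 in YAP and 6.36 in mtYAP. It is the gene of the 41 whose mean was not higher in mtYAP than in YAP, by −0.02, and this sign turned under 3 of the alternatives tried. Prim1, the catalytic subunit of primase, read 6.88, 7.67 and 8.07, with a difference of 0.79 in YAP and 1.19 in mtYAP and 1.07 and 1.31 in mtYAP from its 2 probe sets. Prim2, the large subunit of primase, read 5.74, 6.04 and 6.53. Pola1, the catalytic subunit of polymerase alpha, read 6.80, 7.64 and 8.17 in its brighter probe set, a difference of 0.84 and 1.37, and stayed at 2.66 to 2.80 in the other. Pola2, its regulatory subunit, read 4.37, 4.51 and 4.64, and 6.50 in control on its brightest probe set with differences of 0.02 in YAP and 0.48 in mtYAP.

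The clamp and the subunits of its loader differed from each other. Pcna, the sliding clamp, was bright on all arrays, at 10.52 in control, 10.54 in YAP and 11.02 in mtYAP, a difference of 0.02 and 0.50. Rfc4, a small subunit of the loader, read 6.165, 7.205 and 7.985, with 0.99 and 1.09 in YAP and 1.77 and 1.87 in mtYAP from its 2 probe sets. Rfc5 and Rfc3, also small subunits, read 6.16, 6.70 and 7.54 and 5.955, 6.24 and 7.205. Rfc2, the remaining small subunit, read 5.83, 5.96 and 6.34, and its brightest probe set differed from control by 0.07 in mtYAP. Rfc1, the large subunit, was as far from control in YAP as in mtYAP, at 7.53, 7.79 and 7.79. Rfc3, Rfc4 and Rfc5 thus lay above 1 in mtYAP, and Rfc1, Rfc2 and Pcna between 0.27 and 0.51.

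Rpa1, the large subunit of the protein that covers single-stranded DNA, read 9.795, 10.365 and 10.93 and lay 1.48-fold over control in YAP and 2.20-fold in mtYAP. Rpa2 read 5.22, 5.43 and 6.37, and Rpa3, the smallest subunit, read 8.27, 8.40 and 8.85. In the last step, Fen1 removes the flap in front of each Okazaki fragment and Lig1 seals the nick. Fen1 read 7.415 in control, 7.165 in YAP and 8.11 in mtYAP, and both of its probe sets lay below control in YAP, at −0.20 and −0.30, and above it in mtYAP, at 0.46 and 0.93. It was the replication gene furthest below control in YAP. Lig1 read 7.79, 8.03 and 8.36.

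Set directly against each other, the mtYAP array stood above the YAP array at 40 of the 41 genes, where 53.3% of all genes did, with a median difference of 0.54. Above a difference of 1 lay 4 genes, against 0.748% of all genes, and 21 above 0.5, against 5.45%. None lay below −1, where 1.42% of all genes did. They were Mcm2 at 1.465, Cdc6 at 1.35, Mcm3 at 1.22 and Pole at 1.11, and Orc2 stood at the limit of 1. Rfc1 at 0.0033 and Orc3 at 0.02 stood at the other end, with Pold3 at −0.02. This comparison uses the same arrays as the others and is no separate evidence.

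The probe sets differed in how well they measured their gene. Of 89 probe sets, 83 lay above control in mtYAP and 42 above 1, where 51.0% and 4.61% of all probe sets naming 1 gene did, and 70 lay above control in YAP and 5 above 1, where 48.5% and 1.69% did. For 5 genes, Orc3, Mcm10, Cdc45, Pola1 and Pole2, probe sets lay on both sides of control in mtYAP, and for 12 genes they did so in YAP. The pooled SD between probe sets of a gene was 0.58 in mtYAP and 0.38 in YAP, and it is a spread between probes and not between cultures. With the brightest probe set of each gene in place of the mean, 23 genes passed 1 in mtYAP, where 4.84% of all genes did, and 2 in YAP, Mcm5 and Cdt1, where 1.81% did. Rfc4 then read 0.99.

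**Figure D3:**
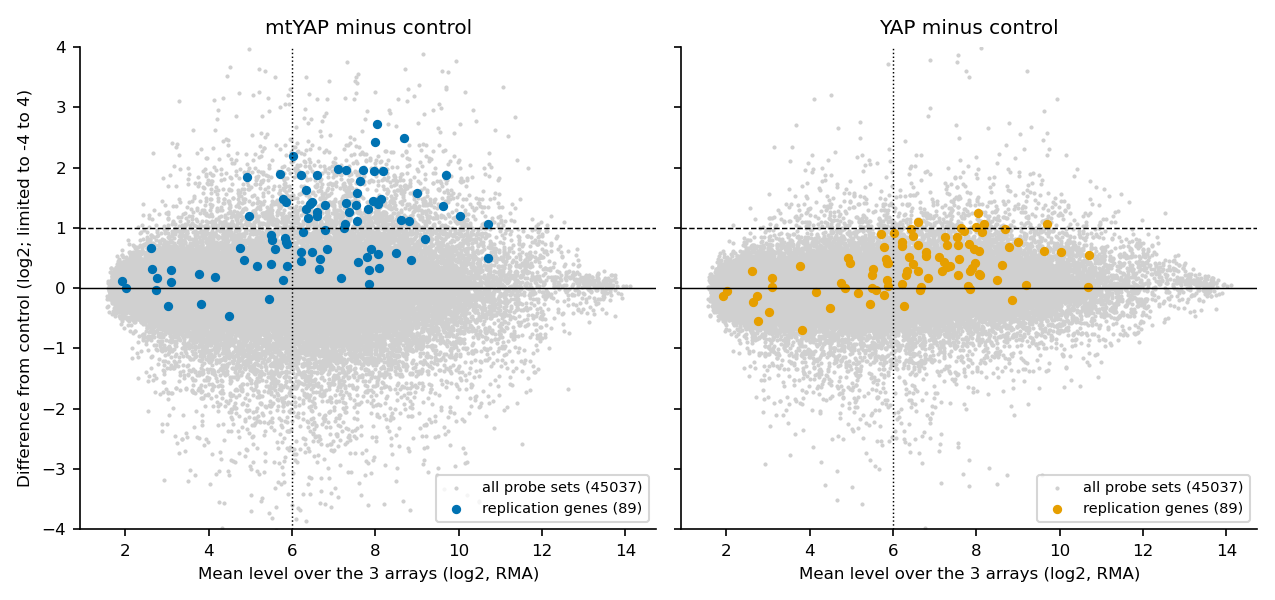
Log2 difference from control (vertical axis, limited to −4 to 4) against the mean level over the 3 arrays (log2, horizontal axis) for mtYAP (left) and YAP (right), with 1 point for each probe set, grey for all 45037 and coloured for the 89 of the replication genes. Dashed and dotted lines mark a difference of 1 and a level of 6, and 83 of the 89 coloured points lie above 0 in mtYAP and 70 in YAP. The mean level includes the mtYAP array, so a probe set that is high there also lies further to the right.

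Genes that work at the fork with these complexes were listed separately, and 43 of 45 were measured, with Chaf1a and Ssrp1 not analysed here. Of the 43, 11 passed 1 in mtYAP, none was under −1 there, and none passed 1 in YAP, where 3.77%, 4.06% and 1.36% of all genes did. Their medians were 0.66 in mtYAP and 0.21 in YAP. Among 8 factors that fire origins, Dbf4, the activating subunit of the kinase Cdc7, read 5.04 in control, 5.94 in YAP and 6.57 in mtYAP, and Mtbp, which works with the firing factor Ticrr, read 5.47, 6.18 and 6.66. Wdhd1, which ties polymerase alpha to the helicase, stood at 0.64 in YAP and 1.05 in mtYAP and Cdc7 at 0.10 and 0.855. Among 7 genes of fork protection and of the removal of RNA from DNA, Timeless stood at 0.43 and 1.49 and its partner Tipin at 0.42 and 1.14, with Rnaseh2a at 0.23 and 0.89 and Rnaseh2b at 0.51 and 0.77. Rnaseh2c, the remaining subunit of the same ribonuclease, stood at −0.36 in YAP and −0.58 in mtYAP, and it is named after its values were seen. Subunits of 1 enzyme therefore lay on both sides of control.

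Of 6 genes of other clamp loaders and clamp partners, 3 lay above 1 in mtYAP, namely Dscc1 at 1.23 and Chtf18 at 1.22, subunits of an alternative loader, and Dtl, the receptor through which Cdt1 is degraded on the clamp, at 1.05. Atad5, which unloads the clamp, stood at 0.995. As means over probe sets, these 4 lay under 6 on all arrays, and none of them passed 0.5 in YAP. In their brightest probe sets Dscc1 stood at 0.52 in YAP and 1.95 in mtYAP, and Atad5 at 0.53 and 1.91. Chtf8, another subunit of the loader with Dscc1 and Chtf18, read 9.3 in control and 8.97 in both lines. It stood at −0.33 in each and is named after its values were seen. Of 7 genes of chromatin copied behind the fork, Asf1b, a histone chaperone, stood at 1.38 in mtYAP and 0.44 in YAP, Dnmt1, the maintenance DNA methyltransferase, at 0.90 and 0.32, its partner Uhrf1 at 0.73 and 0.30 and the histone chaperone Nasp at 0.64 and 0.21. Mcm8, a helicase of recombination related to the ring subunits, stood at 1.45 and 0.69. Its partner Mcm9 stood at 0.03 and 0.10 but read only 3.53 in control, 3.63 in YAP and 3.56 in mtYAP, under the level of 6. Mcmbp, which binds the ring subunits, stood at 0.10 and 0.19. The small polymerase subunits Pole3, Pole4 and Pold4 stood at 0.50, 0.20 and −0.35 in mtYAP and at −0.12, −0.09 and 0.18 in YAP.

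Gene groups that serve S phase and mitosis were set beside the replication genes. Among all genes, 3.77% passed 1 in mtYAP and 1.36% in YAP. Of 9 measured genes of deoxynucleotide synthesis, 4 passed 1 in mtYAP and 1, Dut, passed it in YAP. Their medians were 0.96 and 0.42. Dut, which clears dUTP, stood at 1.805 in mtYAP and 1.53 in YAP, Rrm2, the S phase subunit of ribonucleotide reductase, at 1.71 and 0.42, Dctd, the deaminase of dCMP, at 1.65 and 0.85 and Dck, a salvage kinase, at 1.17 and 0.87. Of 24 measured genes of the mitotic apparatus, 18 passed 1 in mtYAP and 7 passed it in YAP. Their medians were 1.20 and 0.70, against 0.97 and 0.33 for the replication genes. The condensin subunit Ncapg stood at 2.24 and 1.34, the cytokinesis protein Anln at 2.02 and 1.10, the kinetochore motor Cenpe at 1.885 and 1.115 and the kinetochore protein Ndc80 at 1.81 and 1.22. With single arrays the difference between the lists was not tested.

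**Figure D4:**
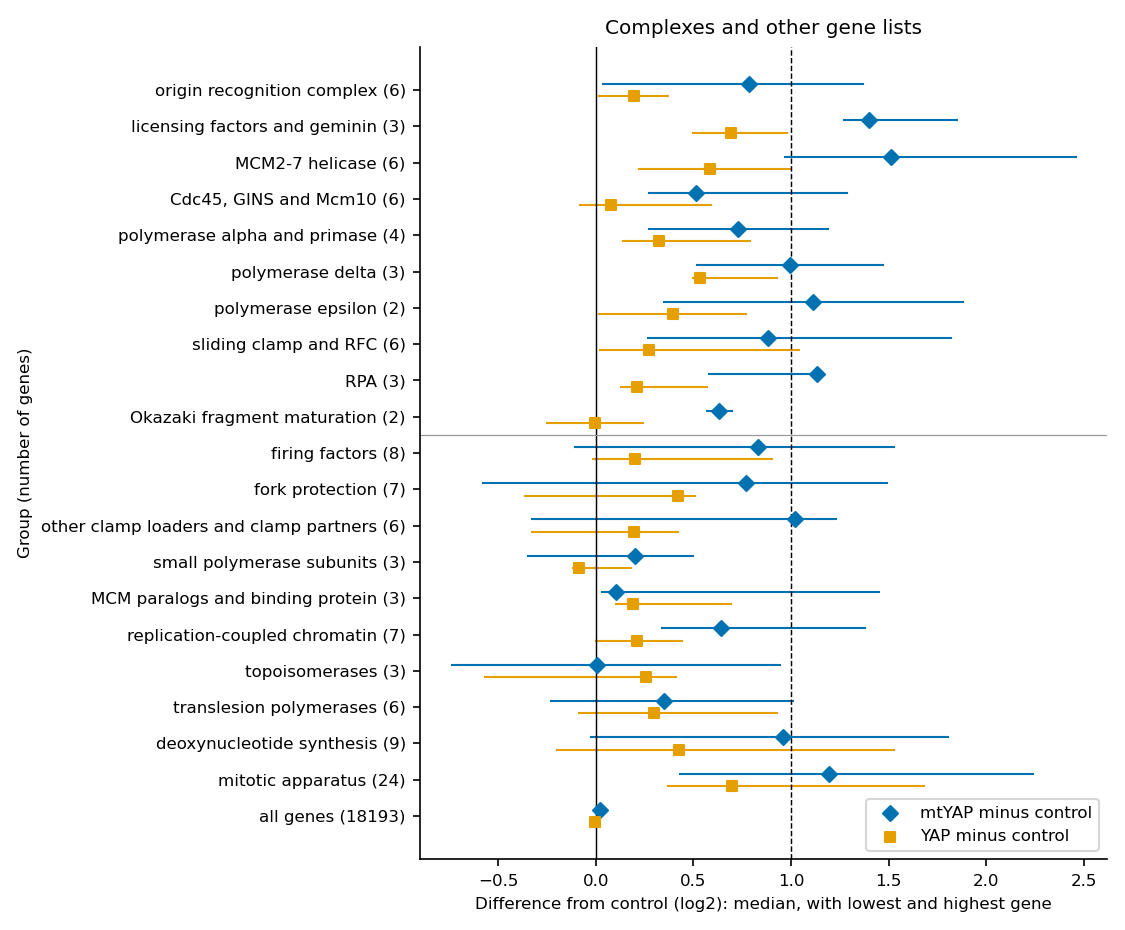
Median of the log2 differences from control (horizontal axis) for each complex of the replication machinery (above the grey line) and of other gene lists and all genes (below it), in mtYAP (blue diamonds) and YAP (orange squares), with a line from the lowest to the highest gene of the list, not drawn for all genes. Numbers of genes are in brackets, and the medians of the helicase Mcm2 to Mcm7 in mtYAP and YAP are 1.51 and 0.59, as means over probe sets.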

How the data were processed

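RNA from control NIH3T3 cells and from cells overexpressing YAP or mtYAP was labelled with biotin and hybridized to Affymetrix GeneChip mouse genome arrays, 1 per condition. The deposited values are log2 levels of 45037 probe sets, rounded to 2 decimals, which the authors made by background subtraction and robust multiarray analysis (RMA) in R. RMA and affy are the tools named in the submitters' processing notes. Their versions, and any further arrays in the same normalization, are not given in the sources consulted. Such normalization forces the arrays onto 1 distribution, so a shift of all genes cannot be seen.

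Of the probe sets, 34945 name 1 gene in the platform annotation and were averaged per gene, 932 name several and 9160 none. All 41 replication genes matched RefSeq (GRCm38.p6) by identifier and symbol, and promoter windows and their sequences are from RefSeq in that build. Differences were counted above 1 and below −1, and a level of 6 on at least 1 array was taken as clearly measured. Every replication gene may be named. Of other lists, up to 4 genes with the largest absolute difference in mtYAP, in either direction, and those past the limit where 5 or fewer were are named. The genes and lists were chosen with earlier results of these data known. The joining and counting were tested on simulated data. The number of arrays limits the precision. Alternatives were another probe set, the median over probe sets, other kinds of probe sets, level limits of 6 and 8, a limit of 0.5, and 3 ways of centring or normalizing again. Python 3.11.15, numpy 2.4.6, pandas 2.3.3, statsmodels 0.14.6 and matplotlib 3.10.9 were used.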

Additional observations from a re-analysis of the deposited data

How the results depend on the processing

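No paired analysis was possible because each condition has 1 array and the labels give no replicate numbers, and no array could be left out. A value was taken as moved where it changed by more than the pooled SD between probe sets of a replication gene, and a count where it changed by more than 1.5 times. Of 351 counts and medians recomputed, 333 stayed within these bounds, and none turned in sign after passing the limit. The bounds are wide for medians, since the pooled SD of 0.58 in mtYAP exceeds the median of 0.515 for Cdc45, GINS and Mcm10. A change of that median to 0.845 with the brightest probe set therefore did not count as moved. The median over the replication genes ranged from 0.81 to 1.135 in mtYAP and from 0.24 to 0.49 in YAP.

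With a limit of 0.5, 34 genes passed in mtYAP, 14 in YAP and 21 in mtYAP against YAP. Of all genes, 11.6%, 6.38% and 5.45% did. The brightest probe set gave 2 genes above 1 in YAP, where 1.81% of all genes were, and a YAP median of 0.51 for Cdc45, GINS and Mcm10. The median over probe sets gave 2 genes in YAP and 7 in mtYAP against YAP, and a further quantile normalization gave 7 there too. For these settings the share of all genes was not computed. With plain probe sets alone, leaving out those marked _s, _x or _a, polymerase epsilon kept Pole2 alone, at 0.35 in mtYAP and 0.335 against YAP, and the Okazaki enzymes kept Lig1 alone, at 0.33 against YAP. With a level of at least 6, polymerase epsilon kept Pole alone, at 1.88 in mtYAP and 1.11 against YAP. With a level of at least 8, 13 genes remained, of which 6 passed 1 in mtYAP, 0 in YAP and 1 in mtYAP against YAP. The share of all genes was not computed at 8. The YAP medians at 8 were 0.79 for polymerase alpha with primase (Prim1 alone) and 0.93 for polymerase delta (Pold2 alone). Both level limits had to be met on at least 1 array. A gene could thus enter through the mtYAP array alone, as 4 did at 6 and as Orc5, Orc6, Gins4, Prim1 and Fen1 did at 8. Of these, Orc6 and Prim1 are among the genes counted above 1 in mtYAP at 8. The values at both level limits are therefore no separate evidence.

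Of 981 values of single genes recomputed, 29 moved. The sign changed for Mcm10 in mtYAP, to −0.26 with the median over probe sets, for 7 genes near control in YAP, and in mtYAP against YAP for Orc3, Pola2, Rfc1 and Pold3, the last reaching 0.02 to 0.07 in 3 settings.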

Other observations

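Other polymerases and the topoisomerases, which belong to no complex described so far, showed a mixed picture. Of 6 translesion polymerase genes, which copy past damaged bases, Polk stood at 1.01 in mtYAP and 0.505 in YAP, Mad2l2, a subunit of polymerase zeta, at 0.70 and 0.93, Poli at 0.56 and 0.69 and Rev3l, the catalytic subunit of polymerase zeta, at −0.23 and −0.09. Poli and Mad2l2 were thus further from control in YAP than in mtYAP, as was Pold3 among the replication genes. Of the 3 topoisomerases, Top2a, which untangles chromosomes in dividing cells, stood at 0.94 in mtYAP and 0.41 in YAP, Top2b at 0.0033 and 0.26, and Top1, which relieves the twist ahead of the fork, below control in both, at −0.74 and −0.57.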
